A study of Mus musculus with 2 samples.

Results

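The NF-κB genes described here were 10 of the 53801 genes counted in sorted mouse microglia. They were the 5 subunit genes Nfkb1, Nfkb2, Rela, Relb and Rel, and the 4 IκB family genes Nfkbia, Nfkbib, Nfkbie and Nfkbiz. Also included was Tnfaip3, which encodes the ubiquitin-editing enzyme A20. The IκB family genes and Tnfaip3 are grouped here as inhibitors. All 10 genes were chosen by name and function, with earlier results of these data known. Each name was matched to 1 Ensembl identifier of the files. The study asked how microglia respond to ischemic stroke. The 2 libraries analysed here came from its sham arm, so the values below are levels in sham-operated mice and hold no comparison of stroke with sham. Each library was made from the brain of 1 male C57BL/6 mouse, aged 8 to 10 weeks by the series' own description, while the study's methods give an older range and both sexes. Both mice had the genotype Cx3cr1(CreER/wt), in which a tamoxifen-inducible Cre takes the place of 1 Cx3cr1 allele. They served as wild-type controls (WT). Both received tamoxifen at 75 mg/kg per day for 4 days and had sham surgery 14 days after the first injection. Cells of the left hemisphere were sorted 3 days later as CD11c–Ly6G–CD11b+CD45low. The tissue was digested with enzymes to free the cells, a step that the study's authors state could change microglial transcription outside the brain. The title of each sample names the sham operation, while its treatment field reads none. Cre in these mice follows the Cx3cr1 promoter, which is also active in other macrophages of the brain's borders.

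NF-κB is a dimer of Rel-family proteins that binds DNA and switches on genes of inflammation and cell survival. In resting cells most dimers are held in the cytoplasm by IκB proteins. When receptors for cytokines or microbial products are engaged, the IκB kinase complex marks IκBα for destruction and the dimers enter the nucleus, where they also drive the genes of their own inhibitors, which closes a feedback loop. In microglia this pathway is known for its part in the production of IL-1β, TNF-α and chemokines.

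Counts per gene were divided by the total over all genes and multiplied by 1000000 (CPM). Library 1 held 23381026 counts and library 2 held 41142609, and 13445 genes had at least 10 counts in both, which are called counted genes. All 10 NF-κB genes were among them. The 2 libraries differed in more than depth. The 13 neutrophil markers summed to 4608 CPM in library 1 and 62234 CPM in library 2, each of the 13 was more than 2-fold higher in library 2, and none was at 0 in both libraries, although Ly6G+ cells had been gated out. The 10 microglia markers, none at 0 in both, summed to 51226 and 47240 CPM, with Csf1r and Sall1 more than 2-fold lower and none more than 2-fold higher in library 2. The 12 genes of the early response list, among them those that tissue dissociation is known to induce, summed to 19200 and 23183 CPM, with 2 (Fos and Dusp1) more than 2-fold higher and 2 (Fosb and Nr4a1) more than 2-fold lower in library 2. Over the 13455 genes that passed edgeR's filter on low counts, the libraries varied with a common biological coefficient of 0.479. This corresponds to a spread of 0.98 in the log2 ratio of a gene between them. With 2 libraries of 1 group no test between conditions was possible, and ranges over the 2 mice are given in its place.

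Several genes of this family, among them Nfkbia, Nfkb2 and Tnfaip3, are known targets of NF-κB, so promoter sequences are shown ahead of the values, for each gene with a match to the binding motif and, for Nfkb2, for its first and second start. Windows from 250 bases before to 50 bases after each annotated start were taken from RefSeq (GRCm38.p6, the same build as the counts). They were at hand for 7 of the 10 genes, Nfkb2, Rela, Rel, Nfkbia, Nfkbib, Nfkbie and Tnfaip3, in 10 windows, since Nfkb2 has 3 starts and Tnfaip3 has 2. Both strands were searched for the kB consensus motif of 10 bases and for a stricter kB motif, every match of which is also a match of the consensus. The consensus was found in 5 of the 7 genes, against 5.14% of the 27025 genes with a window, and in 7 of the 10 windows, against 4.51% of the 32851 windows. The stricter motif was found in 2 of the 7 genes, Nfkb2 and Nfkbia, against 0.466% of all genes. Matches are letters in a window and were not tested as binding sites. In the sequences, printed 5′ to 3′ on the strand of the gene, capitals mark the matches.

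The Nfkbia window is chr12:55492598-55492897 on the minus strand. Its match, which also meets the stricter motif, covers positions −29 to −20 from the start site.
Nfkbia: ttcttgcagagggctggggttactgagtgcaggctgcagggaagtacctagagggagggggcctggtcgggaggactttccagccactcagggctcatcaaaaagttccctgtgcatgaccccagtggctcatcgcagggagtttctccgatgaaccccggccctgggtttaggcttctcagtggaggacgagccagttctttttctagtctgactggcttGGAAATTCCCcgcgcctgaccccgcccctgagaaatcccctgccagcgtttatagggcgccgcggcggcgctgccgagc
The first Nfkb2 window is chr19:46304487-46304786 on the plus strand. Its matches cover positions −39 to −29, where overlapping matches on both strands share 11 bases, and −11 to −2.
Nfkb2: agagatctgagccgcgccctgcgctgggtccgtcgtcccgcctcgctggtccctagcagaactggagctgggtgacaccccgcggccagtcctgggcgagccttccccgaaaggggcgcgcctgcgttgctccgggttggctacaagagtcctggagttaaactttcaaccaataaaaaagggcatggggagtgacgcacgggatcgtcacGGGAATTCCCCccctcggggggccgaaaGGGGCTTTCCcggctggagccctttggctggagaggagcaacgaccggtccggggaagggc
The second Nfkb2 window is chr19:46305445-46305744 on the plus strand, with matches at −236 to −227 and at 11 to 20, the latter also meeting the stricter motif.
Nfkb2, second start: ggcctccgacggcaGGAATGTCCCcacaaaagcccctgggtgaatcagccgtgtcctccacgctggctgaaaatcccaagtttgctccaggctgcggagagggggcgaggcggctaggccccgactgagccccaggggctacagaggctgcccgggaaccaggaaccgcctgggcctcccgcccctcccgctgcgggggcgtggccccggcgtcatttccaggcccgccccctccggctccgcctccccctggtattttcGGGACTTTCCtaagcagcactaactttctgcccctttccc
The Rel window is chr11:23770920-23771219 on the minus strand, with overlapping matches at −92 to −82.
Rel: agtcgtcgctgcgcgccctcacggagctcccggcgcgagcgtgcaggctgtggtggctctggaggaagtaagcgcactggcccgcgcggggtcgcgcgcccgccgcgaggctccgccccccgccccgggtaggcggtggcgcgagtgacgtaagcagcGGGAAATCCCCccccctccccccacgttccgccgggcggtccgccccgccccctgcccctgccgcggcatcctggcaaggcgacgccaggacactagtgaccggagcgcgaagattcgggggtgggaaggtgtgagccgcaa
The first Tnfaip3 window is chr10:19015361-19015660 on the minus strand, with matches at −125 to −116 and −12 to −3.
Tnfaip3: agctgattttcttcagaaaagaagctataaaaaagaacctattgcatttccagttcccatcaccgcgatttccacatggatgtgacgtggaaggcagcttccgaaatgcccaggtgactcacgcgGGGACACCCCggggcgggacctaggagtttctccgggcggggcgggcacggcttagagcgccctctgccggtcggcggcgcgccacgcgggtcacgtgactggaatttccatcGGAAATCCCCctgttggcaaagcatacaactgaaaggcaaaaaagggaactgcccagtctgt
The Nfkbie window is chr17:45555450-45555749 on the plus strand, with 1 match at −106 to −97.
Nfkbie: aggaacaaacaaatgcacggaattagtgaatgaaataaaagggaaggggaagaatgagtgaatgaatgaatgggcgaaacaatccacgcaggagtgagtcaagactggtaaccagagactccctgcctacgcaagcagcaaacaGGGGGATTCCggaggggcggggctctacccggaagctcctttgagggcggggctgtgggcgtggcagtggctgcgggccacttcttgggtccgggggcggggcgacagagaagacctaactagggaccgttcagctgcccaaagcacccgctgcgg

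The letters at the Rel site were GGGAAATCCCC, those at the first site of Nfkb2 GGGAATTCCCC, and those at the Nfkbia site GGAAATTCCC. The stricter match at the second start of Nfkb2, GGGACTTTCC, lies also at −225 to −216 of the third start, since these windows overlap, and is the only match there. The windows of Rela and Nfkbib and the second window of Tnfaip3 hold no match to either motif.

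**Figure D1:**
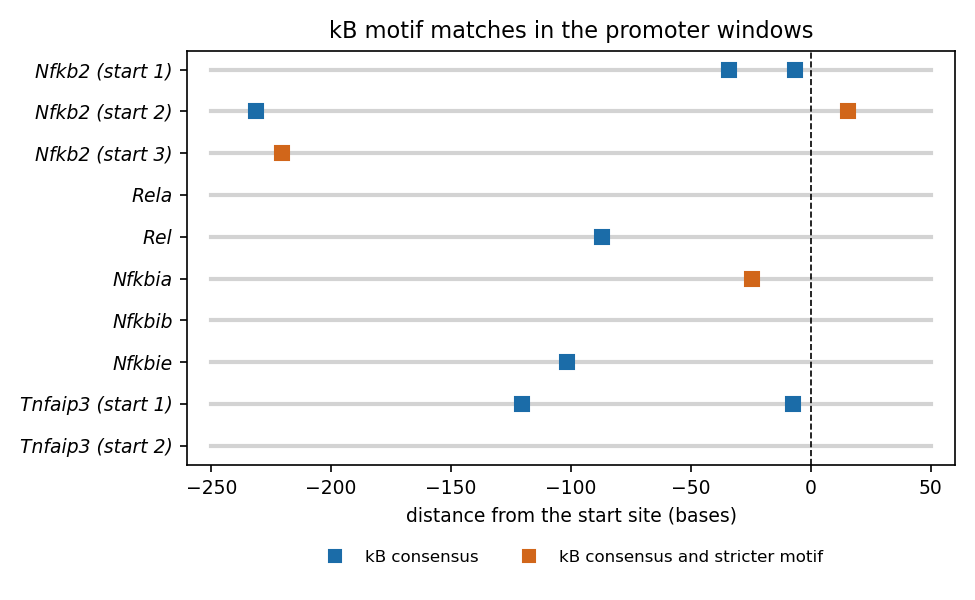
Matches of the kB motif (squares, placed at their centre) in the promoter windows of 7 NF-κB genes, by distance from the annotated start site in bases; orange squares also match the stricter motif. Nfkb2, Rel, Nfkbia, Nfkbie and Tnfaip3 hold at least 1 match, and the windows of Rela and Nfkbib hold none.

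Among the subunits, Rela had the highest level per length. Rela (chromosome 19 of GRCm38, 5637483 to 5648130) encodes p65, the subunit that carries the activation domain of the classical dimer. It reached 257 and 125 CPM in libraries 1 and 2, a mean of 191 ± 92.7 CPM (SD, n = 2 mice). Nfkb1 (chromosome 3, 135584655 to 135691547) encodes p105, the precursor of the p50 partner of p65, and had 154 and 187 CPM, or 170.5 ± 23.6 CPM (SD, n = 2). Library 1 was the higher of the 2 for Rela and the lower for Nfkb1.

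The other 3 subunits had lower CPM than Rela and Nfkb1 in both libraries, with gene length not yet taken into account. Rel (chromosome 11, 23736847 to 23770970), which encodes c-Rel, a subunit best known from lymphocytes, had 51.4 and 23.9 CPM. Relb (chromosome 7, 19606217 to 19629438) and Nfkb2 (chromosome 19, 46304737 to 46312090) encode RelB and p100, the pair of the alternative pathway, in which p100 is trimmed to p52. Relb had 57.1 and 28.9 CPM and Nfkb2 had 50.3 and 19.7 CPM. Library 1 was the higher for all 3.

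Among the inhibitors, Nfkbia (chromosome 12, 55489410 to 55492647), which encodes IκBα, the inhibitor that is destroyed and made again within each round of signalling, stood far above the others. It was read 17300 times in library 1 and 60683 times in library 2, which makes 739.9 and 1475 CPM, and its mean CPM was above that of 99.3% of the counted genes. Library 2 held 1.99 times the level of library 1. The part of the enzymatic digestion of the tissue in these levels was not tested.

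Nfkbib (chromosome 7, 28758251 to 28767512), which encodes IκBβ, had 55.9 and 65.7 CPM. From start to end, the gene overlaps Sirt2 by 778 bases and Ccer2 by 718 bases on the other strand. The strand setting of the counting is not given in the sources used here, so how reads from these stretches were counted is not known. Nfkbie (chromosome 17, 45555716 to 45563169), which encodes IκBε, had 66.8 and 56.6 CPM. These 2 genes were the steadiest of the inhibitors, with SDs of 6.92 and 7.19 CPM around means of 60.8 and 61.7 CPM.

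Nfkbiz and Tnfaip3 act outside the cytoplasmic lock. Nfkbiz (chromosome 16, 55811375 to 55838899) encodes IκBζ, a nuclear protein that helps NF-κB at a subset of its secondary targets, and had 249 and 129 CPM. Tnfaip3 (chromosome 10, 19000910 to 19015657) encodes A20, which removes the ubiquitin chains that carry the signal to the IκB kinases, and had 104 and 46.2 CPM. Library 1 was higher for both, the opposite order to Nfkbia.

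**Figure D2:**
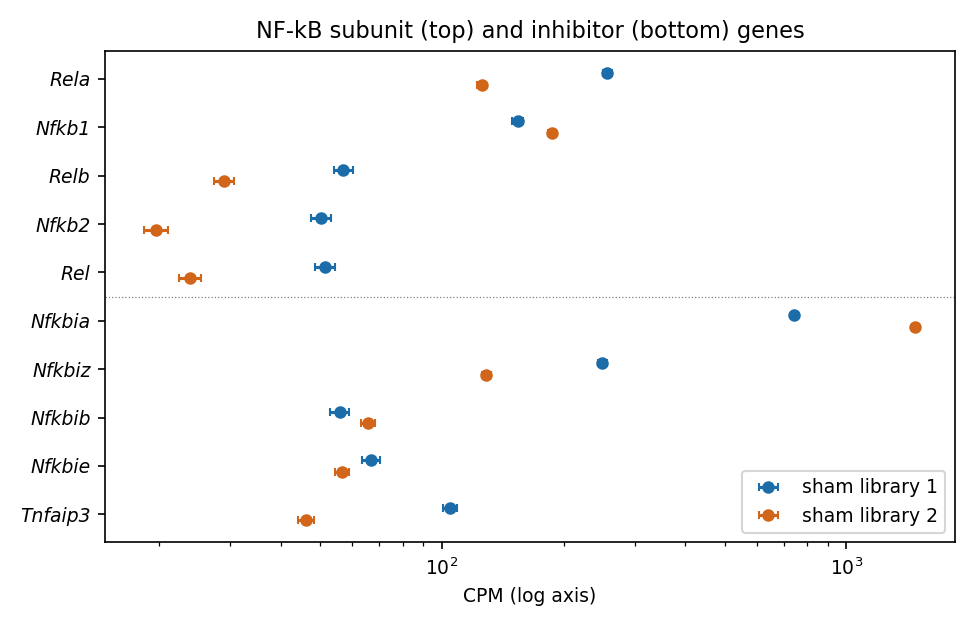
CPM (log axis) of the 5 subunit genes, above the dotted line, and the 5 inhibitor genes, below it, in sham library 1 (blue) and sham library 2 (orange); bars are exact 95% Poisson intervals and cover counting error only. Nfkbia lies at 739.9 and 1475 CPM, and library 1 lies to the right for Rela, Relb, Nfkb2, Rel, Nfkbiz, Nfkbie and Tnfaip3.

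Counting error was small beside the difference between the 2 libraries, in which mouse, sorting and library preparation cannot be told apart. The exact 95% Poisson interval of Nfkb2, the gene with the lowest mean CPM, was 47.5 to 53.3 CPM in library 1 and 18.3 to 21.1 CPM in library 2. The intervals of the 2 libraries did not overlap for any of the 10 genes. Intervals are narrow at such counts, and the share of all counted genes without overlap was not computed. Such intervals cover counting error only, since amplified reads are not independent molecules, and leave out the spread between mice.

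To compare levels between genes, CPM was divided by the length of all annotated exons of the gene (GENCODE M21) in kilobases (kb). Nfkbia had 459.6 and 916 CPM per kb, or 688 ± 323 (SD, n = 2), above 99.6% of the counted genes. Rela followed with 83.5 and 40.8 CPM per kb, above 94.2%. Rel was the lowest of the 10 with 6.88 and 3.20 CPM per kb, and its mean of 5.04 was still above 55.9% of the counted genes. All 10 thus had a mean level per kb above the median of the counted genes, which was 3.85.

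Between these ends the order of the means was Nfkbiz (37.7 CPM per kb), Nfkbib (28.0), Nfkbie (20.3), Nfkb1 (14.1), Relb (11.1), Tnfaip3 (10.4) and Nfkb2 (7.63). Of the 9 steps between neighbours in the order of all 10, the ranges over the 2 mice did not overlap at 3: Nfkbia over Rela, Nfkbib over Nfkbie and Nfkbie over Nfkb1. They overlapped at the other 6: Rela over Nfkbiz, Nfkbiz over Nfkbib, and each step from Nfkb1 through Relb, Tnfaip3 and Nfkb2 to Rel. Overlap alone does not make 2 genes equal, since both were read in the same mice. Of the 45 pairs of genes, 42 had the same order in both libraries. The exceptions were Nfkbiz against Nfkbib, and Nfkb1 against Relb and Tnfaip3.

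The place of Nfkb1 depended on which length was used. Its annotated exons cover 12061 bases, while its longest transcript has 4149 bases. From start to end, the gene overlaps the gene model Gm43430 by 3897 bases on the same strand. That model had 109 and 130 counts of its own. Divided by the length of its longest transcript, Nfkb1 had 41.1 CPM per kb and took rank 4 in place of 6. Nfkbia, Rela and Nfkbiz kept the first 3 places and Rel the last.

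**Figure D3:**
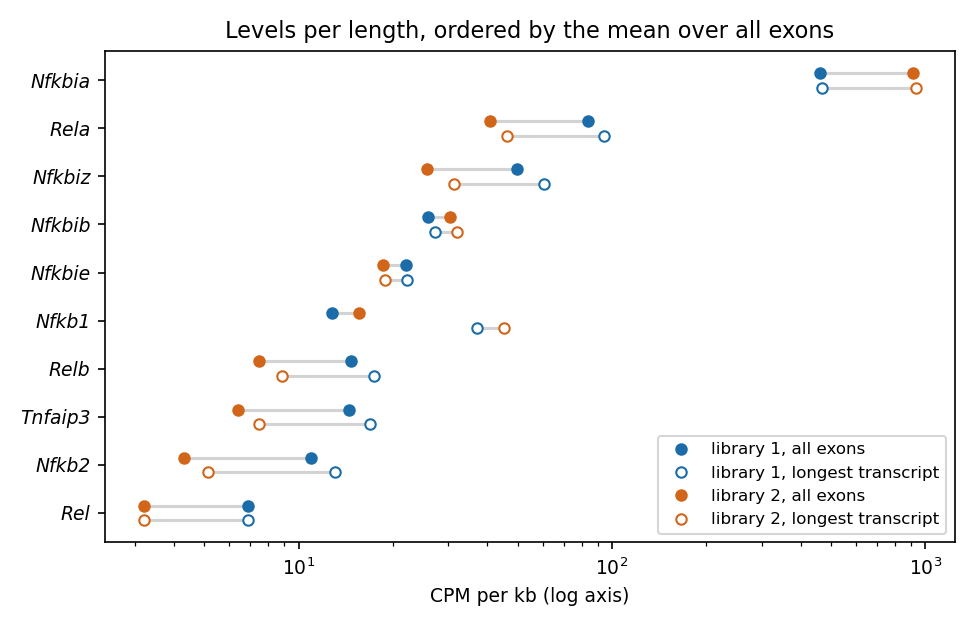
CPM per kb (log axis) of the 10 genes in sham library 1 (blue) and sham library 2 (orange), ordered by the mean over the length of all exons (filled) and shown also over the longest transcript (open); grey lines join the 2 libraries. Nfkbia stands apart at the top, Rel is at the bottom, and Nfkb1 moves most with the length, from 14.1 to 41.1.

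Within the subunits, some proportions were nearly the same in both mice and others were not. Rela was 12.1 times Rel in library 1 and 12.8 times in library 2, in CPM per kb of all exons, and 5.69 and 5.49 times Relb. Rela, Rel and Relb were therefore each lower in library 2 by about the same factor. Against Nfkb1, in contrast, Rela was 6.55 times in library 1 and 2.63 times in library 2. With the longest transcripts as lengths these last ratios were 2.55 and 1.02.

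As shares of the summed CPM per kb of the 5 subunits, Rela took 64.8% in library 1 and 57.3% in library 2. Nfkb1 took 9.90% and 21.8%, Relb 11.4% and 10.4%, Nfkb2 8.52% and 6.02%, and Rel 5.34% and 4.49%. Over the longest transcripts the share of Nfkb1 was 21.9% and 41.6% and that of Rela 55.9% and 42.6%, so that both were nearly level in library 2. The RNA of the alternative pathway pair, Relb and Nfkb2, was a minor part in both mice. The ratio of Nfkb2 to Relb was 0.747 and 0.577.

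Nfkbia took 80.4% of the summed CPM per kb of the 5 inhibitors in library 1 and 91.9% in library 2. Nfkbiz took 8.70% and 2.57%, Nfkbib 4.51% and 3.04%, Nfkbie 3.84% and 1.87%, and Tnfaip3 2.53% and 0.641%. Among the cytoplasmic inhibitors, Nfkbia was 17.8 and 30.2 times Nfkbib and 20.9 and 49.3 times Nfkbie. IκBα RNA was thus the main inhibitor RNA in each mouse, by a margin that differed between them.

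The 5 inhibitors together had 4.44 times the CPM per kb of the 5 subunits in library 1 and 13.99 times in library 2, or 9.21 ± 6.76 (SD, n = 2). This ratio is taken within a library, so the scaling of the libraries does not enter it. The ratio was not adjusted for base composition or for the neutrophil markers, and their part in it was not tested. It depends on the grouping used here, with Nfkbiz among the inhibitors and Nfkb1 and Nfkb2 only among the subunits. It rested on Nfkbia. Without that gene it was 0.869 and 1.14, or 1.00 ± 0.189 (SD, n = 2). Nfkbia alone was 5.50 and 22.4 times Rela.

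The ratio of each gene between the libraries was then set beside those of all counted genes. The median log2 ratio of library 2 over library 1 was −0.97 for the 10 NF-κB genes and −0.26 for the 13445 counted genes. Of the 10, 4 were more than 2-fold lower in library 2 (Nfkb2, Tnfaip3, Rel and Rela, from −1.35 to −1.03), against 25.9% of the counted genes. None was more than 2-fold higher, against 5.74%, with Nfkbia just inside at 1.00. Relb at −0.98 and Nfkbiz at −0.95 were just inside on the other side. With 2 mice there is no test of these ratios, and library 1 and library 2 are replicates of 1 group.

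The scaling moved these counts. With TMM factors the median of the counted genes was −0.03, a shift of all ratios upward. Only Nfkb2 was then more than 2-fold lower, at −1.12, against 20.0% of the counted genes, and Nfkbia was more than 2-fold higher, at 1.23, against 8.46%. The place of each gene among the counted genes does not depend on the scaling. Nfkbia lay above 94.2% of them, Nfkb1 above 75.5%, Nfkbib above 73.0% and Nfkbie above 51.2%, while Nfkbiz, Relb, Rela, Rel, Tnfaip3 and Nfkb2 lay above 27.1%, 26.3%, 25.0%, 23.2%, 21.4% and 17.2%.

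**Figure D4:**
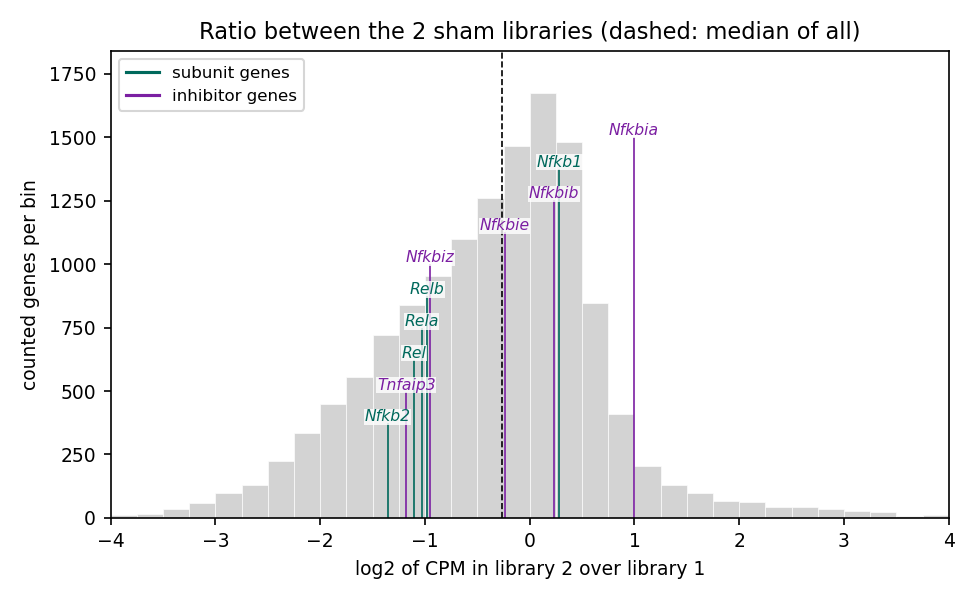
Histogram of the log2 ratio of CPM in sham library 2 over sham library 1 for 13445 counted genes (grey bars, genes per bin of 0.25), with the subunit genes (teal lines) and inhibitor genes (purple lines) at their ratios; line heights carry no value. Nfkb2, Tnfaip3, Rel, Rela, Relb and Nfkbiz lie together left of the dashed median of −0.26, Nfkbie, Nfkbib and Nfkb1 lie between it and 0.28, and Nfkbia is farthest to the right of the 10 genes at 1.00.

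Base composition moved with the ratio between the libraries. The median log2 ratio was −0.13 in the tenth of counted genes with the lowest GC content and −0.64 in the tenth with the highest. The 10 NF-κB genes ranged from 42.5% GC for Rel to 59.4% for Nfkb2 and Rela. After the median of genes of like GC content and exon length was subtracted, Nfkb2 had −0.29 in place of −1.35, Rela −0.56, Rel −0.75, Relb −0.72, Tnfaip3 −0.51 and Nfkbiz −0.44. Nfkb1 had 1.00 in place of 0.28, Nfkbia 0.81 and Nfkbib 0.49, and Nfkbie −0.08. Each kept its sign, and none was more than 2-fold lower. In bulk RNA of sorted cells, fewer cells of a type and less RNA per cell cannot be told apart. Neutrophil markers were 13.5 times higher in library 2, and their part in the ratios of the NF-κB genes was not tested.

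The rest of the pathway was read from 5 lists of 67 genes, of which 66 were counted. These lists, too, were chosen with earlier results of these data known. Of all counted genes, 25.9% were more than 2-fold lower in library 2 and 5.74% more than 2-fold higher. The list of other IκB and IκB-interacting genes, too short to set against these shares, had none of its 5 genes more than 2-fold apart. Its median log2 ratio was 0.36. Nfkbid, which encodes the nuclear inhibitor IκBNS, was its highest with 64.6 and 83.0 CPM per kb, more than each of the 4 inhibitors other than Nfkbia had on average. Nkiras2, which encodes a small GTPase that binds IκB proteins, had 21.2 and 19.8, and Nkiras1, its relative, 1.01 and 1.64. The 5 IκB kinase genes, with a median of 0.03, had none more than 2-fold apart either. Tbk1, a kinase related to the IκB kinases, was the highest at 18.4 and 21.3 CPM per kb. Chuk, which encodes IKKα, had 7.78 and 7.93, and Ikbke was the lowest at 0.190 and 0.367.

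Of the 23 genes of upstream kinases and adaptors, 6 (26.1%) were more than 2-fold lower in library 2 and 1 (4.35%) was more than 2-fold higher, with a median log2 ratio of −0.24. These shares were near those of all counted genes, 25.9% and 5.74%. Myd88, the adaptor of most Toll-like receptors, was the highest with 62.3 and 72.6 CPM per kb, followed by Irak2 with 36.2 and 24.6. Traf1 was the lowest at 0.330 and 0.419. Map3k7, which encodes the kinase TAK1, had a log2 ratio of −2.48, and Irak3, which encodes a brake on the same receptors, 1.18. Of the 12 genes of ubiquitin-editing and other brakes, which act beside A20, 6 were more than 2-fold lower and none higher, against 25.9% and 5.74% of all counted genes, with a median of −1.02. Tax1bp1, which encodes a partner of A20, had 14.5 and 21.7 CPM per kb, and Tnip2 16.2 and 17.1. Tnip3 was the lowest counted at 0.239 and 0.263. The lowest ratio was that of Zc3h12a, which encodes the RNA-cleaving enzyme Regnase-1, at −2.86, with 314 and 76 counts. After the adjustment for GC content and length the median of these brakes was −0.10.

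Of 22 known NF-κB target genes, 21 were counted, and 5 of these (23.8%) were more than 2-fold higher and 2 (9.52%) more than 2-fold lower in library 2, against 5.74% and 25.9% of all counted genes, with a median log2 ratio of 0.54. With TMM, 8 were higher and 2 lower, against 8.46% and 20.0%. The ratio was above the median of all counted genes for 19 of the 21, as it was for Nfkbia and for 4 of the 10 NF-κB genes in all. Ccl4 and Ccl3, chemokine genes of activated microglia, had the highest levels with 661 and 1045 and with 333 and 552 CPM per kb, so that Ccl4 and Nfkbia had overlapping ranges. Il1rn, which encodes the antagonist of the IL-1 receptor, had the highest ratio at 2.07, and Csf1, which encodes a growth factor of microglia, the lowest at −2.71. Neutrophil markers were 13.5 times higher in library 2, and their part in the ratios of the target genes was not tested. Cxcl1 was the lowest counted at 0.411 and 0.596. The only target not counted, Nos2, had 22 and 2 counts.

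**Figure D5:**
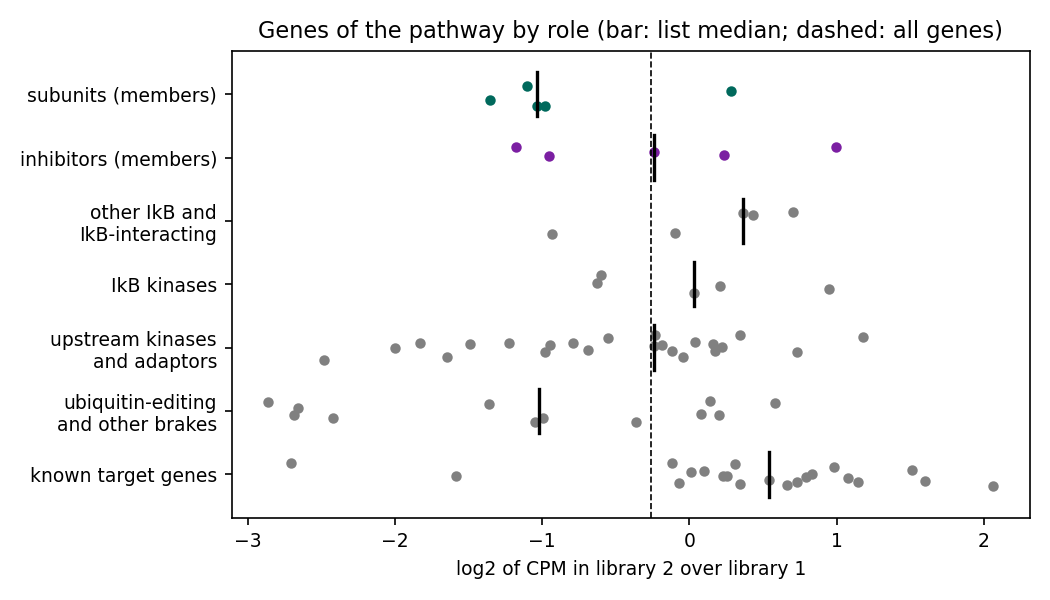
Log2 ratio of CPM in sham library 2 over sham library 1 for counted genes of the pathway by role (points, spread vertically for legibility; teal and purple for the subunit and inhibitor genes described here, grey for the other lists). Black bars are the list medians, −1.03 for subunits, −0.24 for inhibitors and 0.54 for known target genes, and the dashed line is the median of all counted genes, −0.26.

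The AU-rich heptamer TATTTAT, a mark of short-lived RNAs, was searched for in the 3′ untranslated region of the transcript with the longest coding sequence. It was present in 3 of the 10 genes, Nfkbia, Tnfaip3 and Rel, with 2 copies each, against 27.2% of 11302 counted protein-coding genes with such a region. The share among the NF-κB genes was near this background. The 3 genes did not lie together in level or in ratio, with Nfkbia at the top of both orders, Rel last in level, and Rel and Tnfaip3 among the 4 genes more than 2-fold lower in library 2.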

How the data were processed

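RNA of sorted microglia was sequenced from 2 sham-operated mice (SMART-Seq HT cDNA, Nextera XT). The authors mapped reads to GRCm38 with HISAT2 and counted them with HTSeq per Ensembl gene. The deposited values are raw counts, with no normalization by the authors. Tool versions, annotation release and strand setting are not given in the sources used here. Samples were grouped by their titles.

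Gene names, exon lengths, GC content and transcripts were taken from GENCODE M21 (GRCm38), which matched 53706 of 53801 identifiers. CPM used all counts on genes as the total, and counted genes had at least 10 counts in both libraries. The depth of 23381026 and 41142609 counts makes 1 count worth 0.0428 and 0.0243 CPM. The spread between the libraries, each from 1 mouse, was the common dispersion of edgeR 4.0.16 (intercept only, TMM, filterByExpr). DESeq2 1.42.0 gave alternative size factors. No test was run, since both libraries belong to 1 group. GC content and exon length were adjusted for in 10 bins each, with the GC bin alone where a bin held fewer than 20 genes. These steps were tested on simulated data. Promoter windows and their build were those of RefSeq. Tables were computed with pandas 2.3.3, numpy 2.4.6 and scipy 1.17.1 in Python 3.11.15, plots with matplotlib 3.10.9, and models in R 4.3.3.

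The genes and lists were chosen with earlier results of these data known. Of each other pathway list the text names the 2 highest genes and the lowest counted gene per kb, and the gene with the most extreme ratio in each direction past 2-fold. The AU-rich motif was chosen after values were seen, as was Nos2, which is named as the gene not counted. The marker lists for monocytes (676 and 3337 CPM, highest gene Chil3), border macrophages (662 and 279, F13a1), B cells (569.9 and 778, Ighm), T cells (0.171 and 2.82, Cd3d, with Cd3e at 0), astrocytes (11.2 and 17.3, Aldoc), oligodendrocytes (98.6 and 108, Mag by the mean of both) and endothelial cells (18.6 and 15.2, Pecam1) were summed in libraries 1 and 2 as well. Among the lists described in the report, the highest genes by the mean of both were Fos (early response, 2786 and 5980 CPM), Csf1r (microglia, 14910 and 5934 CPM) and Ngp (neutrophils, 749 and 16031 CPM). Alternatives covered scaling, totals without mitochondrially encoded or neutrophil marker genes, gene length, filters on low counts, the fold threshold, the GC and length adjustment, and leaving out each library.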

Additional observations from a re-analysis of the deposited data

How the results depend on the processing

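No paired analysis was possible because both libraries belong to 1 group. Leaving out a library gives the value of the other: the summed level of the 10 genes was 1786 to 2157 CPM around a mean of 1971, and the ratio of inhibitors to subunits 4.44 to 13.99. That ratio was 6.49 over the longest transcripts, 3.37 with no length and 1.00 without Nfkbia. The median log2 ratio of the 10 genes was −0.97, and −0.97 to −0.37 over the alternatives. All 10 signs were kept under each scaling and adjustment except with DESeq2 size factors, where Nfkbie went from −0.24 to 0.04. Of the 10 genes, 0 were more than 2-fold higher and 4 lower in library 2, against 5.74% and 25.9% of all counted genes. With TMM or DESeq2 factors it was 1 higher and 1 lower, with TMM against 8.46% and 20.0% of all counted genes. Without the neutrophil markers in the total it was 1 and 3, and past 1.5-fold 1 and 6. After the GC and length adjustment it was 0 and 0. Of the 66 other pathway genes counted, 6 were higher and 14 lower. This became 10 and 12 with TMM, 12 and 12 with DESeq2 factors, and 14 and 22 past 1.5-fold. Of the 13445 counted genes, 772 were higher and 3485 lower. This became 1138 and 2689 with TMM, and 1240 and 2555 with DESeq2 factors. Without the neutrophil markers in the total it was 870 and 3186, after the adjustment 1274 and 1946, and past 1.5-fold 1689 and 5148. Among the genes with at least 1 count in both libraries it was 1945 and 5357, and with at least 100 counts 302 and 2411. The coefficient of variation was 0.550 without the filter. With the longest transcript the level of Nfkb1 per kb moved from 14.1 to 41.1 and, in an alternative chosen after seeing the data, its mean share of the subunits from 15.8% to 31.8%, with Rela from 61.1% to 49.2%, Relb from 10.9% to 9.23% and Rel from 4.92% to 3.51%. Depth does not limit the levels of the 10 genes, the lowest count being 809 (Nfkb2, library 2), while the number of mice does.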
